A study of Mus musculus with 4 samples.

Results

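Interferon-stimulated genes are the transcripts that cells make in answer to interferons, and 36 of them were followed in the epididymal fat of mice on high-fat diets. The members were taken by gene symbol from a fixed list, which was chosen with earlier results of these data known. For each of them the probe set with the brightest mean log2 signal over the 4 arrays was used. Of the 36 listed genes 34 had a probe set assigned to that gene alone, among 18194 genes measured in this way. Ifi44 and Isg15 are not analysed here: no probe set named Ifi44, and the probe set naming Isg15 named Gm9706 too.

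C57Bl/6J mice were 9 weeks old when the feeding began and were fed for 21 weeks, 10 animals to a diet, and RNA of the epididymal fat pad, the visceral depot beside the testis, was profiled in 2 animals per diet. Both diets drew 60% of their energy from fat. The high-calcium whey diet held 1.8% calcium and whey protein isolate, and the standard high-fat diet held 0.4% calcium, so calcium and whey protein cannot be told apart. The labels gave 2 arrays for the high-calcium whey diet, called replicates 1 and 2 here, and 1 array for the standard high-fat diet. The label of the remaining array gave no diet, and its diet is called open here. With 2 animals profiled per diet, the count would leave the standard high-fat diet for it, but no label states this. The values of this array are printed beside the others. It entered no comparison between the diets, but served in the choice of probe sets, in the background filter and in counts over the 4 arrays.

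Type I interferons act through the receptor chains Ifnar1 and Ifnar2 and the kinases Jak1 and Tyk2. A complex that contains Stat2 and Irf9 then binds interferon-stimulated response elements (ISRE) in promoters. Interferon gamma, the product of T cells and NK cells, acts through its own receptor and gamma-activated sites (GAS) in promoters, and induces Irf1 and several families of large GTPases. In obese fat such genes can be expressed by macrophages, lymphocytes, endothelium and fat cells.

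Signals were deposited on a linear scale and are given as log2 values, so that a difference of 1 is 2-fold. The medians of the arrays lay between 0.0585 and 0.0963 on the linear scale, the highest being that of high-calcium replicate 1. Background was set at the median of each array, and 10463 genes had a higher signal than that on all 4 arrays. All 6 measured genes of the adipocyte list (Adipoq, Lep, Cidec, Lipe, Pparg and Fabp4) were above background on all arrays. With 2 arrays against 1, the number of arrays limits every comparison, and the standard array was assumed to vary as the high-calcium arrays did. Whether fewer cells of a type or less RNA per cell lay behind a lower signal cannot be told apart in whole tissue.

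Of the 34 measured members 31 were above background on all 4 arrays. Mx2, a GTPase of the antiviral Mx family, and Oas3, an oligoadenylate synthetase, were under background on every array, so that no fold is given for them. Mx1, the other Mx GTPase, was under background on high-calcium replicate 1 only, with log2 signals of -3.92 there, -3.84 on replicate 2, with -3.64 on the standard array and -3.23 on the array of open diet. Inbred laboratory strains such as C57Bl/6J are known to carry defective Mx genes.

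**Figure D1:**
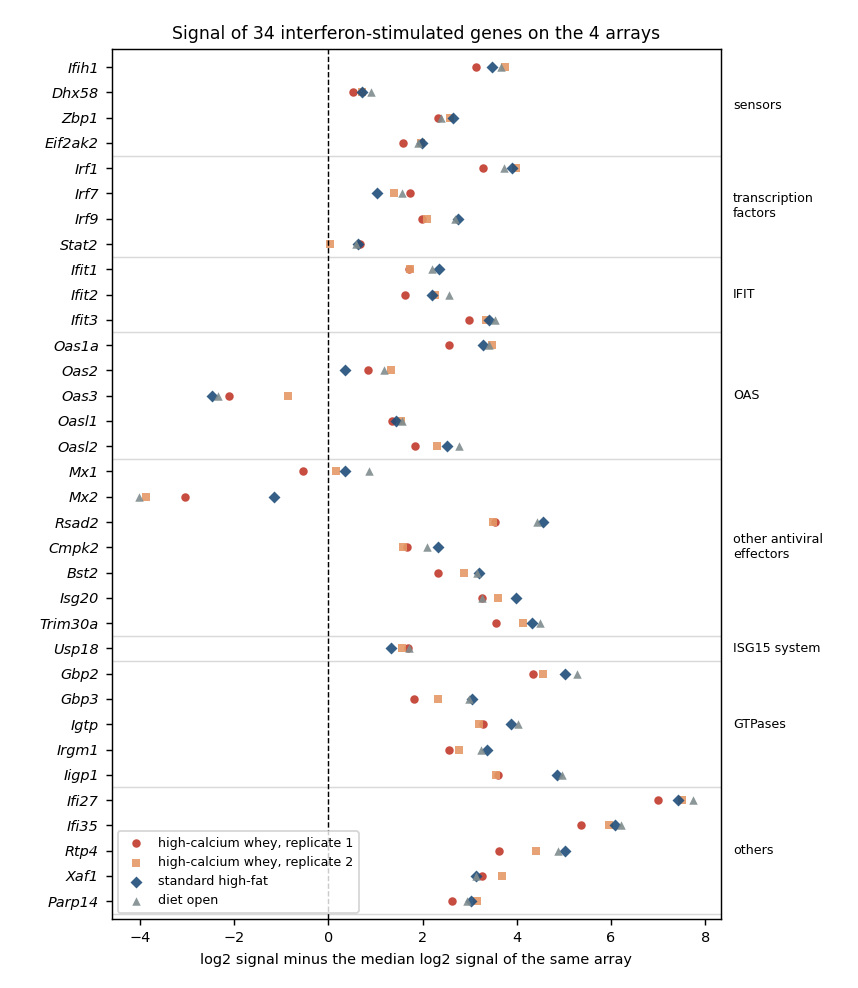
Log2 signal minus the median log2 signal of the same array (x axis) for the 34 measured members (y axis, grouped by role), with 1 point per array; the dashed line is the background level. Of the 34 members 31 lie right of the line on all 4 arrays. Subtracting the median lowers the points of high-calcium replicate 1, whose median signal was 0.0963, against the others, and positions of different genes are not comparable.

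No member differed between the diets past the threshold. limma, fitted over all 18194 genes with Benjamini-Hochberg adjustment, called 0 members at an adjusted p under 0.05, where the share over all genes was 0% as well, and 0 members had an unadjusted p under 0.05, against 4.02% of all genes in the higher and 0.918% in the lower direction. The smallest unadjusted p of a member was 0.0654, that of Oas2, and the adjusted p of every member was 0.9999. With a trend and robust estimation limma called 6 of 18194 genes (0.033%) and 0 members. On arrays centred on their medians limma called 96 genes (0.528%) and again 0 members. The standard error of steady genes was set mostly by the prior over all genes: for Ifih1 the SE was 0.32, although its high-calcium values had an SD of only 6.7e-05.

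By direction alone the members divided. Of the 31 members above background, 14 (45.2%) were lower on both high-calcium arrays than on the standard array, against 27.1% of all 10463 genes above background. Another 10 (32.3%) were higher on both, near the 35.4% of all genes, and in 7 the standard array lay between the high-calcium arrays. Over all 34 measured members 16 were lower on both and 11 higher on both, against 23.9% and 38.6% of all 18194 genes. The median log2 difference of the 31 members was 0.042, beside 0.030 over all genes above background. It turned to -0.13 where the probe sets of a gene were averaged (all genes 0.074), to -0.069 after quantile normalization (all genes -0.0019) and to -0.27 on median-centred arrays (all genes -0.29). Without replicate 1 the median was -0.13 and without replicate 2 it was -0.0036. At least 1.5-fold differences on both arrays were found for 3 members in the lower direction (Gbp3, Iigp1 and Rtp4), against 1.12% of all genes, and for 1 in the higher direction (Oas2), against 2.11%.

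**Figure D2:**
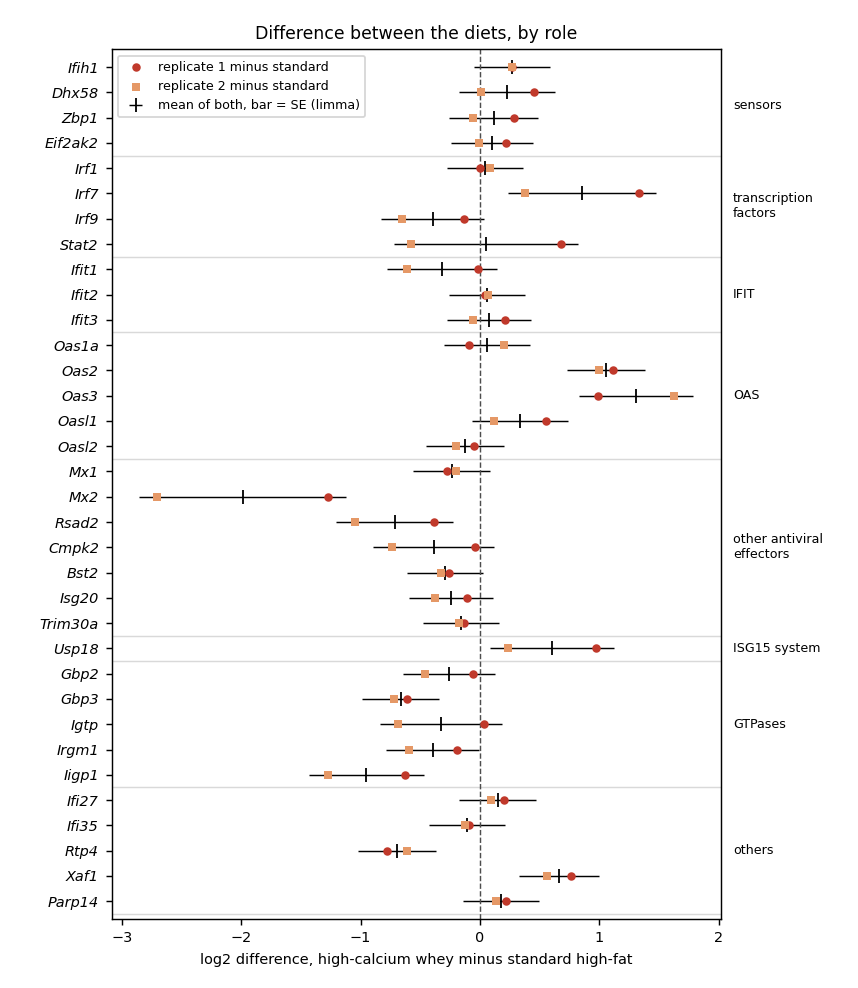
Log2 difference between each high-calcium array and the standard array (x axis) for the 34 measured members by role (y axis); the tick is the mean of both arrays and the bar its SE from limma (n = 2 against 1). The GTPases and the other antiviral effectors lie mostly left of 0 and Oas2, Irf7, Usp18 and Xaf1 right of it. Oas3 and Mx2, with the widest shifts, were under background on all arrays.

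The interferon-inducible GTPases, which act on the membranes around intracellular pathogens and are classical targets of interferon gamma, were mostly lower on the high-calcium arrays. All 5 were above background, 4 of them lower and 0 higher on both high-calcium arrays, against 27.1% and 35.4% of all genes above background. Their median log2 difference was -0.40 in all, -0.19 for replicate 1 and -0.69 for replicate 2. After quantile normalization it was -0.42, with 5 of 5 lower on both. Centring the arrays on their medians takes the same amount from the diet difference of every gene, so that a negative value cannot turn under it. None of the 5 passed limma's test.

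Iigp1, an immunity-related GTPase, had log2 signals of 0.23 on replicate 1, -0.42 on replicate 2, with 0.85 on the standard array and 0.86 on the array of open diet. Both high-calcium arrays were thus under the other pair of arrays. The difference between the diets was -0.95 (SE 0.48, 95% interval from -2.75 to 0.84), with -0.63 on replicate 1 and -1.28 on replicate 2. A further probe set of Iigp1 gave -0.34 and -1.10. Gbp3, a guanylate-binding protein, had -1.56 and -1.67 on the high-calcium replicates, -0.95 on the standard array and -1.11 on the array of open diet. Its high-calcium values lay close together, and the difference of -0.66 (SE 0.32, 95% interval from -1.86 to 0.54) was larger than the gap of 0.11 between them.

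For the remaining GTPases, replicate 2 held the low value on the deposited scale. The median gap of the 5 members, replicate 2 minus replicate 1, was -0.40 on that scale and -0.41 after quantile normalization, and turned to 0.21 on median-centred arrays. Irgm1 had -0.82 on replicate 1, -1.23 on replicate 2, with -0.63 on the standard array and -0.85 on the array of open diet. Igtp, also called Irgm3, had -0.089, -0.80, -0.12 and -0.068 in the same order. Gbp2 had 0.97, 0.57, 1.03 and 1.19. In Igtp replicate 1 stood beside the standard array, and the 0.72 between the high-calcium arrays exceeded the diet difference of -0.33 (SE 0.51). The further probe set of Gbp2 gave a smaller and steadier difference, of -0.14 on replicate 1 and -0.16 on replicate 2.

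GTPases of a wider list of interferon-induced genes were read in the same way, a grouping chosen after values had been seen. Its 4 measured GTPases, Ifi47, Irgm2, Gbp6 and Gbp7, were above background and lower on both high-calcium arrays, with a median difference of -0.28. Ifi47 had -0.78 on replicate 1, -1.11 on replicate 2, with -0.18 on the standard array and -0.51 on the array of open diet, a difference of -0.76 (SE 0.37). Irgm2 and Gbp7 differed by -0.26 and -0.29, and Gbp6 by -0.28. Over the 9 GTPases of both lists, replicate 2 was the lowest of the 4 arrays in 8 on the deposited scale, with Gbp6 lowest on replicate 1. Over all genes above background this share of replicate 2 was 22.7%. Relative to the array medians, replicate 1 was the lowest in 7 of the 9 and replicate 2 in 2. On that scale only 12.3% of all genes above background were lower on replicate 2 than on replicate 1, so that low values on replicate 1 are not particular to the GTPases. Guanylate-binding proteins and immunity-related GTPases are families of similar sequence, and the probe set of a gene can take up signal of another.

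**Figure D3:**
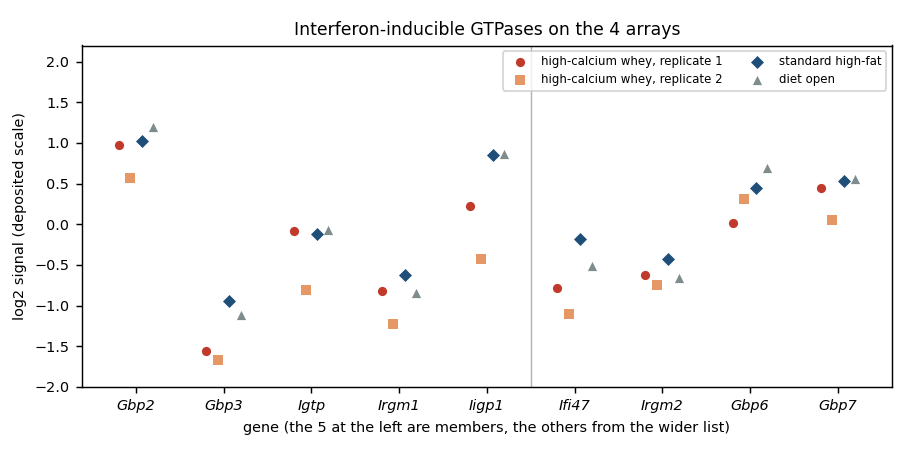
Log2 signal on the deposited scale (y axis) of 9 interferon-inducible GTPases (x axis; 5 members left of the line and 4 of the wider list right of it), with 1 point per array. Replicate 2 of the high-calcium diet is the lowest point in 8 of the 9 genes on this scale (22.7% of all genes above background). Relative to the array medians replicate 1 is the lowest in 7. On that scale 12.3% of all genes above background are lower on replicate 2 than on replicate 1. The standard array lies above both high-calcium arrays in 8 (27.1% of all genes above background).

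The promoters of 4 member GTPases are shown, to set the letters beside the values: Gbp2, Gbp3 and Irgm1 were lower on both high-calcium arrays, and Igtp was not. Each line gives the 150 bases before the gene start from RefSeq on the build GRCm38.p6, 5′ to 3′ on the strand of the gene. Capitals mark matches to the ISRE core GAAANNGAAA on either strand, where overlapping matches join into a longer run.
Gbp2, chr3:142620513-142620662, plus strand: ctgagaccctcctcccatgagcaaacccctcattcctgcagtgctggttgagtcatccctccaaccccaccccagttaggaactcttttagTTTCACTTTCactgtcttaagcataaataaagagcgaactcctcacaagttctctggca
Gbp3, chr3:142559894-142560043, plus strand: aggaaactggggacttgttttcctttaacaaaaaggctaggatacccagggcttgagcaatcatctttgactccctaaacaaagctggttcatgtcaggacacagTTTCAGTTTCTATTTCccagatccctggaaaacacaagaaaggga
Irgm1, chr11:48871421-48871570, minus strand: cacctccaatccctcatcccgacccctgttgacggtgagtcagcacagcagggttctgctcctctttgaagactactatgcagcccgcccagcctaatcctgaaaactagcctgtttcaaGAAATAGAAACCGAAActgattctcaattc
Igtp, chr11:58199406-58199555, plus strand: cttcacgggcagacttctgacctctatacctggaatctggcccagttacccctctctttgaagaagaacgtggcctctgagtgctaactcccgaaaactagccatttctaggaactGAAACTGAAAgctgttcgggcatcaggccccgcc
The match of Gbp2 begins 59 bases before the start and that of Igtp 34 bases before it. Gbp3 and Irgm1 each hold a pair of overlapping matches, beginning 45 and 39 bases before the start in Gbp3 and 30 and 24 in Irgm1. Gbp3 has 2 promoters in the table, and the one with matches is printed.

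Antiviral effectors outside the IFIT and OAS families were lower as well. All 5 of these members above background were lower on both high-calcium arrays, against 27.1% of all genes above background. Their median was -0.29 (-0.33 after quantile normalization). With the mean of all probe sets 4 of 5 were lower on both. Without probe sets whose names end in _a_at, _s_at or _x_at only 2 of these genes were left, both lower. Rsad2, the radical enzyme viperin, had log2 signals of 0.17 on replicate 1, -0.50 on replicate 2, with 0.55 on the standard array and 0.33 on the array of open diet. Its difference was -0.72 (SE 0.49, 95% interval from -2.54 to 1.11). Its probe sets disagreed: of the further 2, both dimmer, one gave -0.71 on replicate 1 and -0.70 on replicate 2, and the other -0.0050 and 0.18. Cmpk2, a mitochondrial nucleotide kinase and the genomic neighbour of Rsad2, had -1.70, -2.40, -1.67 and -2.01 on replicates 1 and 2, the standard array and the array of open diet. Replicate 2 alone stood low in Cmpk2 on the deposited scale, and the 0.70 between the high-calcium arrays exceeded the difference of -0.39 (SE 0.51). Relative to the array medians both replicates were low, at 1.67 and 1.59. The standard array stood at 2.34 and the array of open diet at 2.08.

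The 3 other effectors had smaller differences between the diets. Bst2, the virion tether tetherin, had -1.06 and -1.12 on the high-calcium arrays, -0.80 on the standard array and -0.93 on the array of open diet, a difference of -0.29 (SE 0.32). The difference of Trim30a, a TRIM protein that restrains innate signalling, was -0.16 (SE 0.32), and a further probe set gave 0.11 on replicate 1 and -0.24 on replicate 2. Isg20, an exonuclease, was lowest on the array of open diet, at -0.84, against -0.12 and -0.39 on the high-calcium arrays and -0.013 on the standard array.

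Members of the OAS family, whose products activate RNase L, did not share a side. Oas2 had log2 signals of -2.54 on replicate 1, -2.66 on replicate 2, with -3.65 on the standard array and -2.92 on the array of open diet. The standard array was the lowest and the high-calcium arrays lay 0.12 apart. The difference of 1.06 (SE 0.32, 95% interval from -0.15 to 2.26) was 2.08-fold and the highest of the 31 members. The signal of the standard array was only 0.35 above its median, and with log2(value + 0.1) the difference was 0.56. Oas1a had -0.82, -0.52, -0.73 and -0.68 on the same arrays, with the standard array between the high-calcium ones. Oasl1, an OAS-like protein, differed by 0.33 (SE 0.40) and Oasl2 by -0.12 (SE 0.33), both within their SE. All 5 OAS members had 1 probe set each, so that none could be checked against another.

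The IFIT proteins, which bind foreign RNA ends, differed little. Ifit2 had -1.76 and -1.73 on the high-calcium arrays, -1.80 on the standard array and -1.54 on the array of open diet. Ifit3 had -0.39, -0.65, -0.60 and -0.55 in that order, with the standard array between the replicates. Ifit1 had -1.67 on replicate 1, -1.66 on the standard array, -1.89 on the array of open diet and -2.27 on replicate 2. On the deposited scale replicate 2 alone was low. Relative to the array medians Ifit1 stood at 1.70 and 1.72 on replicates 1 and 2. It stood at 2.35 on the standard array and 2.21 on the array of open diet, so that both replicates were low there. The difference of Ifit1, -0.32 (SE 0.46), was smaller than the 0.59 between the high-calcium arrays. The median over the 3 genes was 0.056 and turned to -0.025 after quantile normalization and -0.26 on median-centred arrays.

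The promoters of Ifit1 and Rsad2, both lowest on replicate 2 on the deposited scale, are set here beside those of Xaf1 and Irf7, which were higher on both high-calcium arrays. Build, strand and capitals are as for the GTPases.
Ifit1, chr19:34640739-34640888, plus strand: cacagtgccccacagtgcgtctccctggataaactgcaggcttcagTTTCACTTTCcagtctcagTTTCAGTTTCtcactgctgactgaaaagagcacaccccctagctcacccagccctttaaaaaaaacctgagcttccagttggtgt
Rsad2, chr12:26456453-26456602, minus strand: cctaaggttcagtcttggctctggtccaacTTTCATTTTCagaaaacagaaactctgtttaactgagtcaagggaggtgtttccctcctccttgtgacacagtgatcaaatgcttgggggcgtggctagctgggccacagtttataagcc
Xaf1, chr11:72301479-72301628, plus strand: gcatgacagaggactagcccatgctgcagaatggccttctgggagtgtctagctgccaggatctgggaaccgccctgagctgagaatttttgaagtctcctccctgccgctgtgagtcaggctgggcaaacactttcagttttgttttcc
Irf7, chr7:141266425-141266574, minus strand: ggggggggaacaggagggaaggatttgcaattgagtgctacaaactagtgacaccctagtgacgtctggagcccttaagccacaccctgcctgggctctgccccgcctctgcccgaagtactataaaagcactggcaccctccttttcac
Ifit1 holds 2 separate matches, beginning 104 and 85 bases before the start, and Rsad2 holds 1, beginning 120 bases before it. In these windows of Xaf1 and Irf7 the letters were not found. Other members ran the other way, within 250 bases before to 50 after the start. Ifih1, higher on both high-calcium arrays, held a match there, and Irf9, Oasl2, Cmpk2, Isg20 and Ifi35, lower on both, held none.

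Over the table of promoters, the ISRE core was more frequent in the members. The letters GAAANNGAAA on either strand, within 250 bases before to 50 after the start, stood in 16 of 33 promoters of 26 members (48.5%) and in 3.44% of all 32851 promoters. More than 1 match was found in 7 of the member promoters and in 0.225% of all promoters. The GAS core TTCNNNGAA stood in 8 of the 33 (24.2%) and in 8.30% of all. Such matches are letters only and not tested sites. Of 13 members above background with the ISRE core, 7 were lower on both high-calcium arrays and 1 higher (median -0.26). Of 10 members without it, 5 were lower and 4 higher (median -0.033). For the other 8 members above background the promoter was not analysed here, and 2 were lower and 5 higher (median 0.16). Over all genes above background 27.1% were lower on both and 35.4% higher (median 0.030). The same shares for all genes with the ISRE core were not computed. Whether the letters go with the difference between the diets was not tested. The members had been listed as interferon targets, so that their share of ISRE letters is not an independent observation.

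Transcription factors of the pathway differed among themselves. Irf7, the amplifier of type I interferon production, had log2 signals of -1.64 on replicate 1, -2.60 on replicate 2, with -2.97 on the standard array and -2.54 on the array of open diet. On the deposited scale replicate 1 alone was high. The difference of 0.85 (SE 0.62, 95% interval from -1.46 to 3.16) was smaller than the 0.95 between the high-calcium arrays. With log2(value + 0.1) it was 0.56. Usp18, the protease that removes Isg15 from proteins and restrains the receptor, showed the same order, with -1.69, -2.43, -2.66 and -2.39. Its difference was 0.60 (SE 0.52). Irf9 had -1.39 on replicate 1, -1.91 on replicate 2, with -1.25 on the standard array and -1.40 on the array of open diet, a difference of -0.40 (SE 0.43). Irf1, the factor most closely tied to interferon gamma, had -0.10, -0.011, -0.099 and -0.37, and the standard array lay between the replicates. Stat2 barely exceeded background on replicate 2, at -3.95, against -2.70 on replicate 1, with -3.38 on the standard array and -3.51 on the array of open diet, and its further probe set was under background on some arrays.

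By their chosen probe sets and on the deposited scale, cytosolic sensors of nucleic acids lay slightly higher or level. Ifih1, the RNA sensor MDA5, had -0.25 on both high-calcium arrays, -0.52 on the standard array and -0.42 on the array of open diet, a difference of 0.27 (SE 0.32). Dhx58, the RNA helicase LGP2, differed by 0.45 on replicate 1 and 0.0084 on replicate 2. Zbp1, a sensor of Z-form nucleic acid, and Eif2ak2, the RNA-dependent kinase PKR, differed by 0.12 (SE 0.37) and 0.10 (SE 0.34), with the standard array between the replicates in both. A further probe set of Eif2ak2, above background on 3 arrays, gave -0.94 on replicate 1 and -0.67 on replicate 2, and another gave -0.13 and 0.18. The median over the 4 sensors, 0.17, was 0.055 after quantile normalization and turned to -0.14 on median-centred arrays, with 3 of 4 lower on both. With the mean of all probe sets it was 0.023, with 2 of the 4 lower on both and 2 higher.

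Among the members of other function the largest differences ran in opposite directions. Rtp4, a receptor chaperone, had log2 signals of 0.25 on replicate 1, 0.41 on replicate 2, with 1.03 on the standard array and 0.77 on the array of open diet. The difference of -0.70 (SE 0.33, 95% interval from -1.92 to 0.53), 1.62-fold, exceeded the 0.16 between the high-calcium arrays. Xaf1, a pro-apoptotic partner of XIAP, had -0.11, -0.31, -0.87 and -0.96 on the same arrays. Both high-calcium arrays were above the other pair, with a difference of 0.66 (SE 0.34, 95% interval from -0.59 to 1.92). For both genes the further probe set was dimmer and under background on at least some arrays.

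The other members in this role had small differences. Ifi27, a mitochondrial protein, had 3.62, 3.51, 3.42 and 3.65 on replicates 1 and 2, the standard array and the array of open diet, and its further probe set also gave small positive differences of 0.14 and 0.17. Ifi35, a leucine zipper protein, had 1.99, 1.96, 2.08 and 2.11. Its probe sets disagreed in sign, with 0.60 and 0.36 on replicates 1 and 2 for a further probe set of a kind that can share transcripts. The chosen probe set is of such a kind too. The remaining probe set gave -0.068 and -0.13. Parp14, an ADP-ribosyltransferase, differed by 0.18 (SE 0.32). Of the 10 further probe sets of members that were above background on all arrays, 8 had the sign of the chosen one and 2 had the other.

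The 2 arrays of the high-calcium diet also differed from each other in these genes. Of the 31 members 27 had a lower signal on high-calcium replicate 2 than on replicate 1, against 58.1% of all genes above background. The median gap was -0.26, beside -0.066 over all genes. After quantile normalization 21 of 31 were lower on replicate 2, against 47.5% of all genes, with medians of -0.16 and 0.018. On median-centred arrays the medians were 0.35 and 0.55, and the sign of the gap turned, since centring shifts the gap of every gene alike. On the deposited scale replicate 2 was the lowest of the 4 arrays in 15 of 31 members (48.4%), against 22.7% of all genes, and the highest in 2. The gap between the replicates was at least 1.5-fold in 8 members, with 18.7% of all genes as background, led by Stat2 (2.39-fold) and Irf7 (1.94-fold). In 13 of the 31 (41.9%) the mean difference between the diets exceeded that gap, near the 39.6% of all genes.

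**Figure D4:**
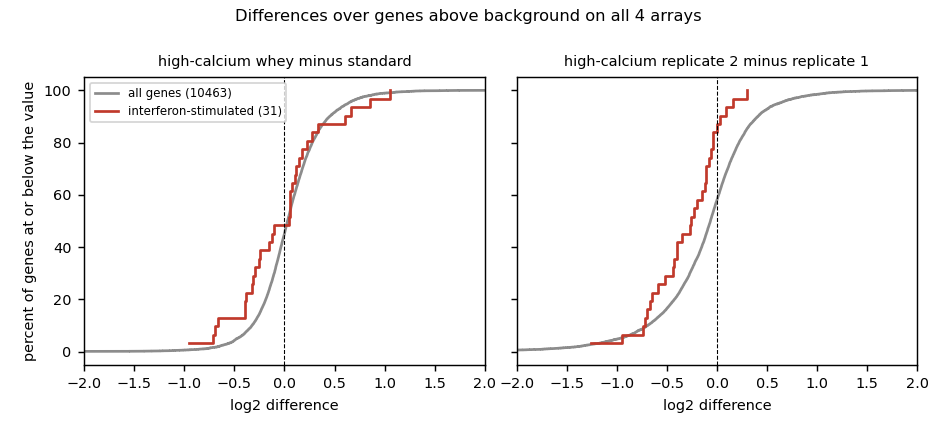
Percent of genes at or below each log2 difference (y axis) for 31 interferon-stimulated genes and 10463 genes, all above background on the 4 arrays, with the x axis cropped at -2 and 2. At the left, for the diets, the medians are 0.042 and 0.030; at the right, for replicate 2 minus replicate 1, the members' curve lies left of that of all genes, with medians of -0.26 and -0.066.

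Upstream of the members, the interferons themselves were at the limit of detection. Of 10 measured ligands 0 were above background on all arrays, and 8, Ifng among them, were under it on every array. The exceptions, Ifna1 and Ifnb1, were picked after their values were seen. Ifna1 exceeded background on each high-calcium array, by 0.32 on replicate 1 and 1.12 on replicate 2. It was under background on the standard array and the array of open diet, so that no fold is given, and it did not pass limma's threshold. Its probe set is of a kind that can take up related transcripts, and the Ifna genes are close copies of each other. Ifnb1 exceeded background on replicate 1 only.

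Receptors and signalling genes were divided evenly, with 4 of 13 above background lower on both high-calcium arrays and 3 higher (median -0.0040). Ifngr2, a chain of the interferon gamma receptor, differed by 0.56 (SE 0.37) and Ifnar1 by -0.38 (SE 0.35). Of 10 sensors and adaptors above background 3 were lower and 3 higher. Cgas, the DNA sensor, differed by 0.79 (SE 0.48), and Tlr7, an endosomal RNA receptor, by -0.78 (SE 0.62), with -1.26 on replicate 1. Of 8 inhibitors 1 was lower and 3 were higher, with Adar, the RNA-editing deaminase, at 0.45 (SE 0.58) and Ptpn6, a phosphatase of blood cells, at -0.31 (SE 0.51).

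The wider list of interferon-induced genes lay in the same range as the members. Of its 43 genes above background 17 were lower on both high-calcium arrays (39.5%) and 10 higher (23.3%), against 27.1% and 35.4% of all genes, with a median of -0.11. Ifi47 and Ifitm1, a membrane protein that blocks viral entry, had the largest differences. Ifitm1 had log2 signals of -1.61 on replicate 1 and -3.49 on replicate 2. It had -1.93 on the standard array and -3.01 on the array of open diet. The difference between the diets was -0.62 (SE 1.10). Of the high-calcium arrays, replicate 2 alone was under the standard array on the deposited scale. No gene of these 5 lists passed limma's adjusted threshold, and 2 ligands, Ifna1 and Ifna4, had an unadjusted p under 0.05.

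Markers of cells that can express such genes were summed on each array, on the deposited scale. The summed linear signal of 10 macrophage markers, all above background, was 38.8 on replicate 1, 63.0 on replicate 2, with 60.2 on the standard array and 62.0 on the array of open diet. The summed signal of the 5 GTPase members was 4.97, 3.55, 5.94 and 6.07 in the same order. Divided by the median of each array, both sums were lowest on replicate 1. T-cell markers summed to 1.47 on replicate 1 and 0.621 on replicate 2, with 0.674 on the standard array, and 3 of 7 measured were above background on all arrays, Cd4 being under it on all. NK-cell markers summed to 0.809, 0.521, 0.571 and 0.668 on these arrays, with 3 of 6 above background and Prf1 under it on all. Markers of plasmacytoid dendritic cells, the main makers of type I interferon, summed to 1.38, 0.602, 0.634 and 0.628. The brightest of them on replicate 1 was Ly6d, with a log2 signal of -0.81 there and -3.93 on replicate 2. Only 3 of the 7 markers were above background on all arrays, while Siglech and Ccr9, which define these cells, were under it on all.

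Markers of other cell types differed between the arrays as well. Endothelial markers summed to 2.28 on replicate 1 and 2.13 on replicate 2, under the 3.39 of the standard array, with 2.10 on the array of open diet and 5 of 6 genes lower on both. Such sums are led by the brightest gene of a list. Neutrophil markers, of which 1 of 5 was above background on all arrays, summed to 2.92 and 2.75 on the high-calcium arrays, 5.83 on the standard array and 3.62 on the array of open diet. That gene, S100a8, had log2 signals of 1.39, 1.31, 2.47 and 1.78 on these arrays. S100a9 had -3.10, -3.00, -3.12 and -4.38, without a lower signal on the high-calcium arrays than on the standard array. B-cell markers (1 of 6 above background) summed to 2.73 on replicate 1 and to between 0.249 and 0.572 on the others. Smooth muscle markers (5 of 6) summed to 60.6 on replicate 1 and to between 7.06 and 10.4 on the others. Mesothelial markers (5 of 5) summed to 4.87, 1.95, 1.65 and 2.21 on replicates 1 and 2, the standard array and the array of open diet. Of them 4 were higher on both high-calcium arrays, while Krt19, the brightest on replicate 1 at 1.35, was -1.89 on replicate 2 and -0.63 on the standard array. Markers of epididymis and testis (2 of 7, with Lcn5 and Lcn8 under background on all) summed to 12.2, 0.502, 3.39 and 0.384. The brightest of these was Defb42 on replicate 1, at 3.25, and Adgrg2 on the standard array, at 0.61. The part of any of these in the differences of the interferon-stimulated genes was not tested.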

How the data were processed

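Biotin-labelled RNA was measured on 4 arrays of 45101 probe sets. The deposited values are linear intensities, with RMA named in the submitters' processing notes without a version; the values are not log2 RMA output, and their scaling by the authors is not given in the sources at hand. The lowest value of each array was its median divided by 100. The platform annotation gave 1 gene symbol to 34958 probe sets, several to 932 and none to 9211; 34754 matched a gene record, and all 34 members did.

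Log2 intensities were used without a constant or further normalization. The test was limma 3.58.1 under R 4.3.3 (lmFit, then eBayes), two-sided and adjusted by Benjamini-Hochberg over 18194 genes, with a threshold of 0.05, 1 residual degree of freedom and 2.38 in all. The fit was tested on simulated data. Labels do not give batches. Whether replicates shared cages or processing is not stated. The p-values rest on the spread between the 2 high-calcium arrays and on the prior over all genes. The single standard array adds no spread of its own.

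A gene of the receptor and signalling list is not reported here. All members were named; of wider lists, the 2 genes with the largest difference. The members and lists were chosen with earlier results of these data known. Figures used matplotlib 3.10.9 under Python 3.11.15.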

Additional observations from a re-analysis of the deposited data

Results flagged for a closer look

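Oas2 drew attention on the array of open diet, which no comparison between the diets uses. Its log2 signal there was 0.73 above that of the standard array, the only one of the 31 members above background that exceeded the standard array by over 1.5-fold. Oas2 was also 1.12 and 0.999 above the standard array on the 2 high-calcium arrays, so that the standard array was the lowest of the 4. The gene has 1 probe set, and the standard array lay only 0.35 above its median.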

How the results depend on the processing

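Over 8 alternatives and the 34 members, 259 differences were recomputed: 240 kept their direction and stayed on the same side of limma's threshold, 19 changed sign and 0 passed the threshold. Centring on array medians called 61 higher and 35 lower genes over the whole table, and a trend with robust estimation called 6 lower; the other settings called 0, every probe set by itself included. Without probe sets whose names end in _a_at, _s_at or _x_at, 8 of 22 members were lower on both arrays, in place of 14 of 31. The lower members left out there were Irf9, Oasl2, Cmpk2, Isg20, Trim30a and Gbp3, which had only _a_at probe sets. After centring, 4 members were higher on both, in place of 10. The median difference of 0.042 moved to -0.13 with the mean of all probe sets, to -0.069 with quantile normalization and to -0.27 with centring, and the cause was not tested. Leaving out a high-calcium replicate gave medians from -0.13 to -0.0036, 16 to 19 members lower and 12 to 15 higher than the standard array, with no test because no residual degree of freedom remained.

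Centring turned the differences of Ifih1 (-0.045), Dhx58 (-0.087), Zbp1 (-0.20), Eif2ak2 (-0.21), Irf1 (-0.27), Stat2 (-0.27), Ifit2 (-0.26), Ifit3 (-0.24), Oas1a (-0.26), Ifi27 (-0.17) and Parp14 (-0.14). It lowers all genes of high-calcium replicate 1, and the median of all 18194 genes went from 0.079 to -0.24. The mean of all probe sets turned Zbp1 (-0.35), Eif2ak2 (-0.23), Stat2 (-1.0), Ifi35 (0.092) and Parp14 (-0.13). Leaving out probe sets ending in _a_at, _s_at or _x_at turned Zbp1 (-0.81), and quantile normalization turned Stat2 (-0.13) and Ifit2 (-0.025). No paired analysis was possible because the labels give no pairing of arrays across the diets. Members close to background, Stat2, Oas2 and Dhx58 among them, are the least certain: with log2(value + 0.1) the difference of Oas2 went from 1.06 to 0.56, that of Irf7 from 0.85 to 0.56, that of Oasl1 from 0.33 to 0.22 and that of Dhx58 from 0.23 to 0.12.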

Other observations

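The array of open diet lay close to the standard array in these genes. The median absolute log2 difference between them over the 31 members above background was 0.16, as over all 10463 genes (0.16), whereas high-calcium replicate 2 and the standard array differed by 0.32 over the members and 0.18 over all genes. Replicate 2 and the array of open diet differed by 0.32 over the members and 0.17 over all genes. Replicate 1 did not show this: it differed from the standard array by 0.22 over the members and 0.25 over all genes. From the array of open diet replicate 1 differed by 0.26 over the members and 0.28 over all genes. Over the 9 GTPases, the array of open diet was above both high-calcium arrays in 7. In Xaf1 and Iigp1 it stood beside the standard array, while in Oas2, Irf7 and Usp18 it lay nearer to high-calcium replicate 2. These are values of single arrays and assign no diet.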
